A study of Mus musculus with 10 samples.

Results

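The neutrophil-drawing CXC chemokines of the mouse form a compact gene family, and 7 genes of it were followed here out of 19938 genes that had a probeset of their own on the arrays. They are the 6 ELR-type chemokine genes Cxcl1, Cxcl2, Cxcl3, Cxcl5, Cxcl15 and Ppbp, together with their neighbour Pf4. For each gene the probeset annotated to that symbol alone with the highest mean over the 10 arrays was taken, and 7 of 7 genes had exactly 1 such probeset. The family was chosen by what had been measured before: Cxcl5 and Ppbp were known to exceed their MEFs + DMSO level when nilotinib-treated ALL cells were present. That contrast is therefore given for the members as a description, without p-values. Its calls, intervals and refits rest on the same values, are printed as description only, and nothing is read from them.

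The arrays measured RNA of mouse embryonic fibroblasts (MEFs) of wild-type genotype. All of them had received 1000 rad, which stops their division, and were kept until day 9 in medium for which the sample records give 10 ng/ml of interleukin-3. The methods of the study give a lower concentration, and name it for the medium of the 8093 cells. MEFs + DMSO (3 arrays) received the solvent and MEFs + nilotinib (3 arrays) received 16 nM of nilotinib, an inhibitor of the Abl kinase. MEFs + ALL + nilotinib (3 arrays) and MEFs + ALL + DMSO (1 array) were cultured with 8093 cells and given 16 nM nilotinib or DMSO. The 8093 cells are a Bcr/Abl transgenic line of murine precursor B acute lymphoblastic leukemia (ALL). A Transwell membrane with 0.4 um pores lay between the fibroblasts and these cells. No Transwell is listed for the groups without ALL cells, so the parts of the insert and of the ALL cells cannot be told apart. According to the methods, the triplicates were separate dishes plated from MEFs, so that p-values measure the spread between dishes, and other dishes of MEFs + ALL + DMSO held leukemia cells, which left 1 array of that group.

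ELR chemokines carry the residues glutamate, leucine and arginine ahead of their paired cysteines and act on the receptor Cxcr2, through which they draw neutrophils out of the blood. Fibroblasts, epithelium and endothelium make Cxcl1, Cxcl2 and Cxcl5 in response to interleukin-1, tumor necrosis factor and interleukin-17, through NF-kB and C/EBP factors and through control of mRNA decay, whereas Ppbp and Pf4 are best known as the most abundant chemokines of platelets. Cxcl15 is known from lung epithelium, and Pf4 lacks the ELR residues and does not act on Cxcr2.

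The genes lie next to each other on chromosome 5, in the order Cxcl5, Ppbp, Pf4, Cxcl3, Cxcl15, Cxcl1 and Cxcl2, and the annotation lists 7 genes from the first to the last, all of them members. RefSeq sequence of the stretch of 150 bases ahead of the annotated start is shown for the 6 of them with an entry (build GRCm38.p6), so that the letters of neighbouring genes can be read side by side. Capitals mark GGANNTTCC, a shorthand of the NF-kB site, and TATAAA, the TATA box, both searched on both strands.
Cxcl1, chr5:90891095-90891244, + strand: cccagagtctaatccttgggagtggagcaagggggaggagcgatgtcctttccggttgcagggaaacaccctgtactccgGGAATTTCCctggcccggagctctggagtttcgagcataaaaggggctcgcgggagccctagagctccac
Cxcl2, chr5:90903749-90903898, + strand: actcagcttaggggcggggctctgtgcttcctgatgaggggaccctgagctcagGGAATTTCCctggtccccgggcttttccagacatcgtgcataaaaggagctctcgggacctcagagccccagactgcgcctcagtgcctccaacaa
Cxcl3, chr5:90785951-90786100, + strand: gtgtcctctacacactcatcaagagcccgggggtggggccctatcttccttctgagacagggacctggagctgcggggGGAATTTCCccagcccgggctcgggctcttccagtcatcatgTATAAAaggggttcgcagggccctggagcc
Ppbp, chr5:90768368-90768517, + strand: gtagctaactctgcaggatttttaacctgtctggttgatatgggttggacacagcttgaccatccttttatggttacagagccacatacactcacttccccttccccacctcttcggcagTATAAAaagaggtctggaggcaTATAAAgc
Cxcl15, chr5:90794384-90794533, + strand: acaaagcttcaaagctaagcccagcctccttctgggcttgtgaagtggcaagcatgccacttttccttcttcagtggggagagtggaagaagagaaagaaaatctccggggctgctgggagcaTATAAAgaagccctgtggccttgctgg
Pf4, chr5:90772285-90772434, + strand: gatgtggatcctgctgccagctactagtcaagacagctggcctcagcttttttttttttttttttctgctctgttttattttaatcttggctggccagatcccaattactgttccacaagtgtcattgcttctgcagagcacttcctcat
Cxcl1, Cxcl2 and Cxcl3 each held the same 9 letters, GGAATTTCC, with the first base at positions -70, -96 and -72 from the start. Ppbp, Cxcl15 and Pf4 had no match to GGANNTTCC in the window searched, which ran from 250 bases ahead of the start to 50 bases after it. The motif was thus in 3 of 6 member windows and in 4.26% of 32851 windows of all genes. TATAAA was found in Ppbp, where it began at positions -30 and -8, in Cxcl3 at -30 and in Cxcl15 at -27, so in 3 of 6 windows and in 13.6% of all windows. TTGCNNAA, a C/EBP-like motif, was in the window of Pf4 alone (10.8% of all windows), and TGANTCA, the AP-1 motif, in that of Ppbp alone (7.81%). Cxcl5 had no entry in the sequence table. A match is a run of letters and does not show a bound site. Cxcl1, Cxcl2 and Cxcl3, which hold GGANNTTCC, were not among the higher genes below. Of the genes without it, Ppbp and Cxcl15 were higher and Pf4 was not. Any part of the motifs in these values was not tested.

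Of the 10 arrays, 2 stood apart from the rest over all probesets. MEFs + ALL + DMSO had a score of 66.9 on the leading principal component (30.8% of the variance), with the others between -22.6 and 9.13. On the next component (18.9%) the score was 50.0 for MEFs + ALL + nilotinib replicate 2 and lay between -17.0 and 13.1 for the rest. The MEFs + ALL + DMSO array also carried transcripts of B-lineage cells: the summed signal of 10 measured B-lineage markers was 5574 there, from 1173 to 1216 in MEFs + ALL + nilotinib and from 1173 to 1227 in MEFs + DMSO. Markers of fibroblasts were bright on every array, with a summed signal of 10 genes between 49222 and 60141. Values are the log2 of RMA-normalized signals, array medians ran from 6.94 to 7.01, and the number of arrays limits the precision.

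Cxcl5, Ppbp and Cxcl15 stood about 1 log2 unit higher in MEFs cultured with nilotinib-treated ALL cells than in MEFs with DMSO, while Cxcl1, Cxcl2, Cxcl3 and Pf4 did not. Groups were compared with limma on all 35557 probesets, and a gene is called where its p adjusted by Benjamini-Hochberg over all of them is under 0.05. With nilotinib-treated ALL cells over MEFs + DMSO 2 of 7 members were called, both higher, beside 0.627% of all probesets called in either direction and 0.503% called higher. Nothing is read from this count, because the contrast served to choose the family.

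Cxcl5, a ligand of Cxcr2 that fibroblasts and epithelium secrete, had log2 signals of 5.44, 5.49 and 5.40 in the 3 arrays of MEFs + DMSO and of 5.42, 5.51 and 5.33 in those of MEFs + nilotinib. In MEFs + ALL + nilotinib the values were 6.32, 6.50 and 6.34, and in MEFs + ALL + DMSO 6.74. The 4 arrays with ALL cells all lay above the 6 without, and no group with ALL cells overlapped one without. The group means were 5.44 ± 0.048 in MEFs + DMSO, 5.42 ± 0.089 in MEFs + nilotinib and 6.39 ± 0.10 in MEFs + ALL + nilotinib (SD, n = 3 each). The difference between MEFs + ALL + nilotinib and MEFs + DMSO was 0.94 on the log2 scale (SE 0.075, 95% interval 0.77 to 1.12), a 1.93-fold difference. The levels without ALL cells were below 5.58, the lower quartile of probeset means, and whether such probesets are above background was not given in the table used.

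Ppbp encodes the precursor of platelet basic protein, which becomes the Cxcr2 ligand NAP-2 when it is cut. Its log2 signals were 7.18, 7.01 and 6.89 in MEFs + DMSO and 6.86, 7.13 and 6.89 in MEFs + nilotinib. With ALL cells they were 8.29, 7.76 and 8.19 under nilotinib and 7.88 under DMSO. Again all arrays with ALL cells lay above all arrays without, and replicate 2 of MEFs + ALL + nilotinib was the lowest of the 4. The means were 7.02 ± 0.15 in MEFs + DMSO, 6.96 ± 0.15 in MEFs + nilotinib and 8.08 ± 0.28 in MEFs + ALL + nilotinib (SD, n = 3 each). The difference from MEFs + DMSO was 1.05 (SE 0.15, 95% interval 0.72 to 1.39), a 2.10-fold difference. Its call was lost when any 1 replicate of MEFs + DMSO, or replicate 1 or 3 of MEFs + ALL + nilotinib, was left out, where the difference ran from 0.95 to 1.13. Those fits called 8 to 31 of all 35557 probesets, beside 223 with all arrays.

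Cxcl15, also called lungkine, had log2 signals of 7.25, 7.20 and 7.07 in MEFs + DMSO and of 7.43, 7.36 and 7.09 in MEFs + nilotinib. The values were 8.54, 7.72 and 8.21 in MEFs + ALL + nilotinib and 8.46 in MEFs + ALL + DMSO. No array with ALL cells overlapped an array without, but the spread among the dishes with nilotinib-treated ALL cells was the widest of the family, with an SD of 0.41 around 8.16 against 0.091 around 7.17 in MEFs + DMSO (n = 3 each). The difference from MEFs + DMSO was 0.99 (SE 0.19, 95% interval 0.55 to 1.42), 2.03-fold, and was not called, although its size was close to those of Cxcl5 and Ppbp. Replicate 2 of MEFs + ALL + nilotinib, the array that stood apart, held the lowest value of its group. Without it the difference of Cxcl15 was 1.20 and was called. Without replicate 1, which held the highest value, the difference was 0.79 and was not called. Of the 7 fits with an array left out, 1 called Cxcl15. Of the 8 other alternatives 3 called it: limma with trend and robust options, limma with array weights, and the fit without dim probesets. Those 3 also called more of all probesets than the main fit.

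**Figure D1:**
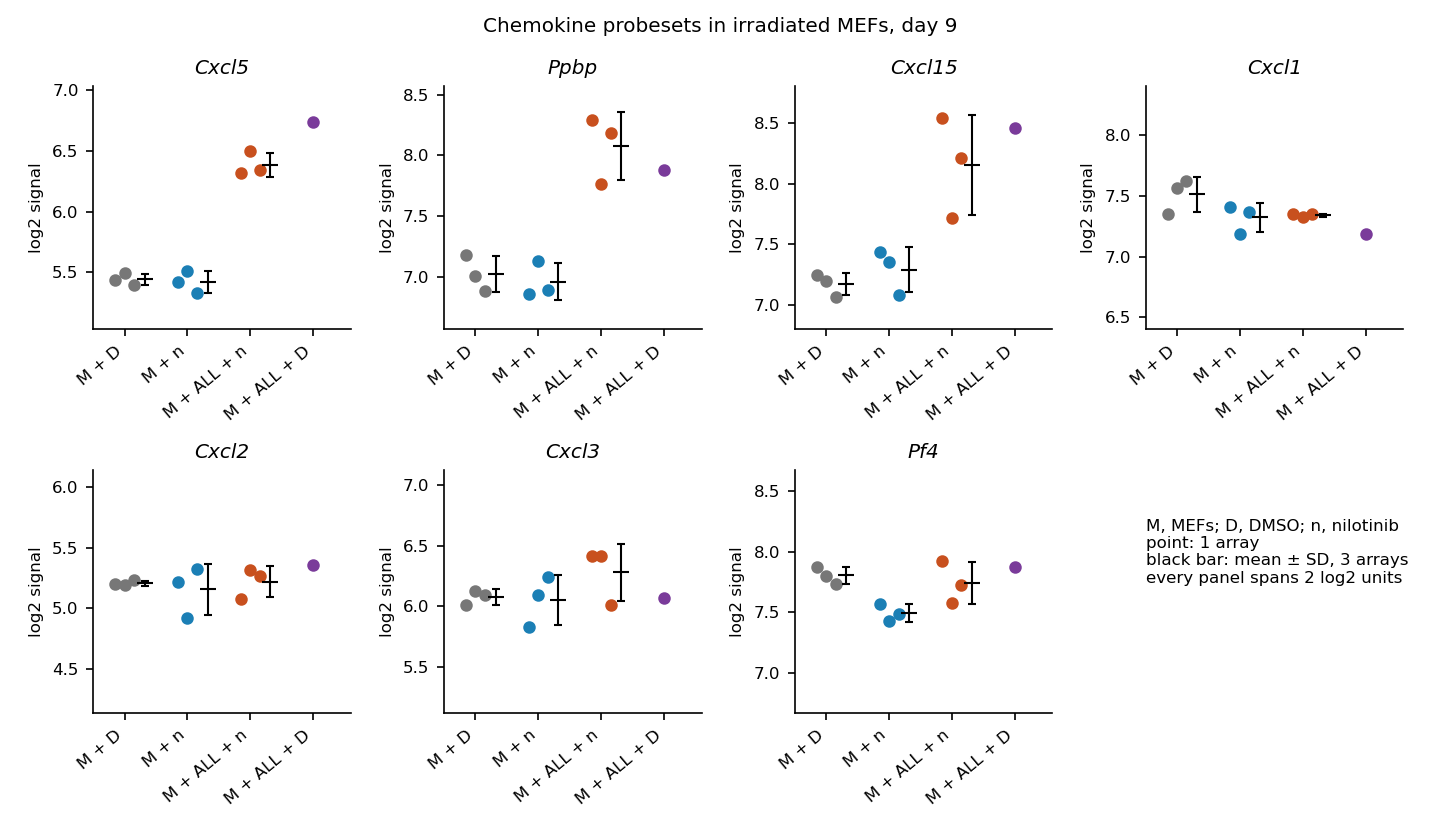
Log2 signal of each chemokine probeset in every array, by group (M, MEFs; D, DMSO; n, nilotinib), with the mean ± SD of groups of 3 arrays as black bars and a span of 2 log2 units in every panel. For Cxcl5, Ppbp and Cxcl15 the 4 arrays with ALL cells lie above the 6 without, and for the other 4 genes the groups with and without ALL cells interleave.

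Cxcl1, the chemokine KC and a main neutrophil attractant of mouse fibroblasts, had log2 signals of 7.35, 7.57 and 7.62 in MEFs + DMSO, 7.41, 7.19 and 7.37 in MEFs + nilotinib, and 7.35, 7.33 and 7.35 in MEFs + ALL + nilotinib. It was the member closest to a lower level with ALL cells: the difference from MEFs + DMSO was -0.17 (95% interval -0.38 to 0.031) and was not called. Its highest array with nilotinib-treated ALL cells and its lowest with DMSO were the same to 2 decimals. The lone MEFs + ALL + DMSO array had 7.19, level with replicate 2 of MEFs + nilotinib to 2 decimals and below the other arrays.

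Cxcl2, also known as MIP-2, stood at the dim end in every group, with means of 5.21 ± 0.021 in MEFs + DMSO, 5.16 ± 0.21 in MEFs + nilotinib and 5.22 ± 0.13 in MEFs + ALL + nilotinib (SD, n = 3 each), and 5.36 in MEFs + ALL + DMSO. The difference between MEFs + ALL + nilotinib and MEFs + DMSO was 0.014 with a 95% interval from -0.24 to 0.26, which does not hold the size seen for Cxcl5.

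Cxcl3, the third of the closely related trio with Cxcl1 and Cxcl2, had 6.41, 6.42 and 6.01 in MEFs + ALL + nilotinib and 6.01, 6.13 and 6.09 in MEFs + DMSO. The lowest dish with ALL cells was at the level of the lowest without to 2 decimals, and the difference was 0.20 (95% interval -0.11 to 0.52). MEFs + nilotinib had 5.83, 6.09 and 6.24, and MEFs + ALL + DMSO had 6.07.

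Pf4, platelet factor 4, lies directly beside Ppbp. Its log2 signals were 7.87, 7.80 and 7.74 in MEFs + DMSO, 7.57, 7.43 and 7.49 in MEFs + nilotinib, 7.92, 7.58 and 7.72 in MEFs + ALL + nilotinib and 7.88 in MEFs + ALL + DMSO. The lowest group was MEFs + nilotinib. MEFs + ALL + nilotinib overlapped MEFs + DMSO, and the lone array, at 7.876, lay just above the highest MEFs + DMSO array, at 7.875. The difference between MEFs + ALL + nilotinib and MEFs + DMSO was -0.065 with a 95% interval from -0.28 to 0.15.

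Over the 7 members, the arrays of MEFs + ALL + nilotinib lay entirely above those of MEFs + DMSO for 3 (Cxcl5, Ppbp and Cxcl15), and entirely below for 1 (Cxcl1, by less than the second decimal), beside 14.1% and 10.6% of all probesets. The median difference was 0.20 over the members and -0.00416 over all probesets. Among 35557 probesets ordered by their difference, Ppbp ranked 58, Cxcl15 70 and Cxcl5 78 from the highest. Nothing is read from these counts, the median or the ranks, because the same contrast served to choose the family.

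The comparison with MEFs + nilotinib holds the drug constant and asks what the presence of ALL cells, together with the Transwell insert, adds. It shares the 3 arrays of MEFs + ALL + nilotinib with the comparison above, which served to choose the family, and is not independent of it. The p-values and counts below are therefore description, and nothing is read from them. Cxcl5 rose by 0.97 (SE 0.075, adjusted p = 0.00489 from limma, 1.95-fold) and Ppbp by 1.12 (SE 0.15, adjusted p = 0.0382 from limma, 2.19-fold), both in 3 of 3 arrays against all 3 of MEFs + nilotinib. These were 2 of 7 members called, both higher, beside 0.186% of all probesets called and 0.149% called higher. Cxcl15 differed by 0.87 (95% interval 0.43 to 1.30, adjusted p = 0.186 from limma) and was not called. Of 15 alternatives 1, limma with array weights, called it. Pf4 differed by 0.25 (95% interval 0.032 to 0.46, adjusted p = 0.467 from limma), with 7.49 ± 0.071 in MEFs + nilotinib and 7.74 ± 0.17 in MEFs + ALL + nilotinib (SD, n = 3 each). Arrays did not overlap for 4 of 7 members, all higher with ALL cells, beside 7.8% of probesets. Cxcl1, Cxcl2 and Cxcl3 differed by 0.019, 0.065 and 0.23, with intervals that include 0. In a fit restricted to the arrays of the groups compared, 0 members and 4 of all 35557 probesets were called, and Cxcl5 had an adjusted p of 0.0644 from limma. Ppbp lost its call here when any 1 replicate of MEFs + nilotinib, or replicate 1 or 3 of MEFs + ALL + nilotinib, was left out, with adjusted p up to 0.178 from limma. Those fits called 12 to 27 of all probesets, beside 66 with all arrays.

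The drug without ALL cells was compared next, and no member was called between MEFs + nilotinib and MEFs + DMSO. Limma called 0 of 7 members, and 0% of all 35557 probesets, while 3985 probesets and 1 member had an unadjusted p under 0.05. No member was called with array weights or with the trend and robust options either. The member was Pf4, which had a difference of -0.31 (SE 0.094, 95% interval -0.52 to -0.097, adjusted p = 0.367 from limma), and its 3 arrays with nilotinib lay below all 3 with DMSO. Such a pattern held for 1 of 7 members and for 7.05% of all probesets. Cxcl5 differed by -0.022 (95% interval -0.19 to 0.15) and Ppbp by -0.065 (95% interval -0.40 to 0.27), so that for both the interval lies below the difference seen with ALL cells present.

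**Figure D2:**
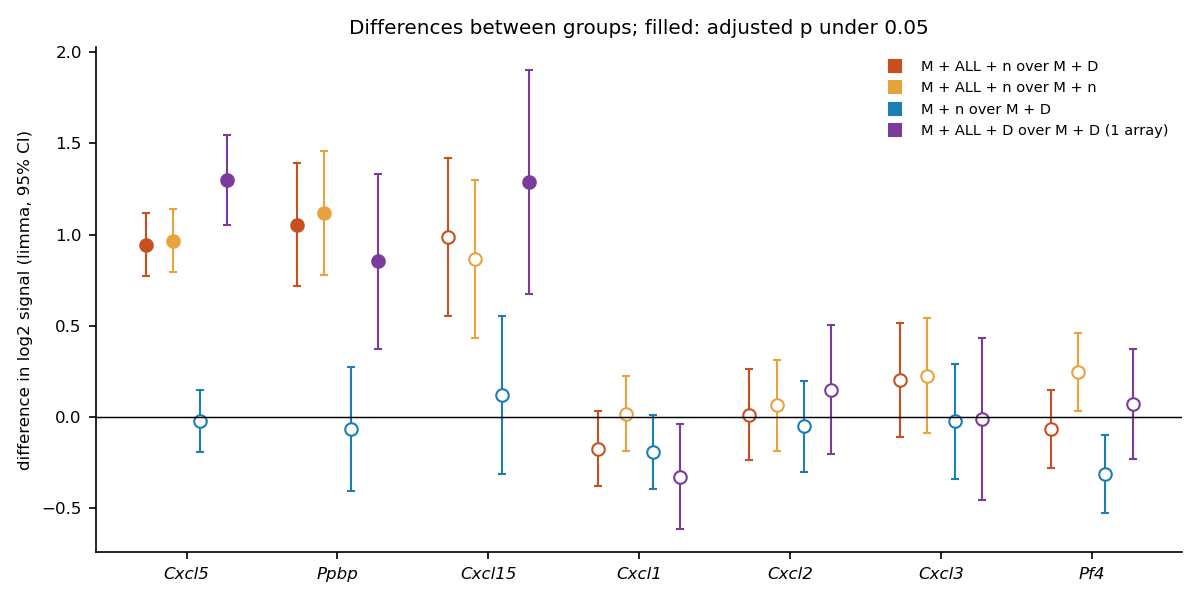
Differences in log2 signal with 95% intervals from limma for each chemokine in 4 comparisons (M, MEFs; D, DMSO; n, nilotinib), with filled points where the adjusted p is under 0.05. Cxcl5 and Ppbp sit between 0.85 and 1.30 in the comparisons that add ALL cells and at -0.022 and -0.065 with the drug alone.

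MEFs + ALL + DMSO is a single array, assumed in the fit to vary like the other groups, and its comparison with MEFs + DMSO shares the control arrays of the first comparison. Cxcl5 was higher by 1.30 (SE 0.11, adjusted p = 1.22e-04 from limma), Cxcl15 by 1.29 (SE 0.27, adjusted p = 0.0203 from limma) and Ppbp by 0.85 (SE 0.21, adjusted p = 0.0385 from limma). These were 3 of 7 members called, all higher, beside 10.3% of all probesets called and 6.67% called higher on this array. Cxcl1 differed by -0.33 (adjusted p = 0.136 from limma), Cxcl2 by 0.15, Pf4 by 0.072 and Cxcl3 by -0.011, and none of these was called. Without replicate 2 or replicate 3 of MEFs + DMSO the count fell to 1, Cxcl5, and fewer of all probesets were called as well. The B-lineage transcripts on this array move with the comparison, and their part in these differences was not tested. As the only array of its group it adds nothing to the shared spread. Leaving it out therefore could not change the comparisons of MEFs + ALL + nilotinib with the other groups.

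Whether the leukemia cells had been given nilotinib or DMSO made no difference that passed the test for any member. Between MEFs + ALL + nilotinib and the MEFs + ALL + DMSO array limma called 0 of 7 members and 4.34% of all probesets, 1 member had an unadjusted p under 0.05, and limma with array weights called 1, Cxcl5. Cxcl5 differed by -0.35 (95% interval -0.60 to -0.11, adjusted p = 0.130 from limma), with the lone array above the 3 others. Ppbp differed by 0.20 (95% interval -0.28 to 0.68) and Cxcl15 by -0.30 (95% interval -0.92 to 0.31), intervals that reach beyond 0.5 in size and leave the order of these groups unsettled. The interaction, which asks whether ALL cells add more with DMSO than with nilotinib, was called for 0 of 7 members and for 3.95% of probesets, with 1 member, Cxcl5 (0.33, 95% interval 0.033 to 0.63, adjusted p = 0.213 from limma), at an unadjusted p under 0.05. The trend and robust options and array weights gave 0 of 7 as well.

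Along chromosome 5 the higher genes were not a block. Reading from the albumin side, Cxcl5 and Ppbp, which are adjacent, were higher by 0.94 and 1.05 in MEFs + ALL + nilotinib over MEFs + DMSO, the next 2, Pf4 and Cxcl3, differed by -0.065 and 0.20, Cxcl15 differed by 0.99, and Cxcl1 and Cxcl2 at the far end by -0.17 and 0.014. Of the 10 flanking genes, 5 on each side, 0 were called in this comparison and 0 in that with MEFs + nilotinib. Of all probesets 0.627% and 0.186% were called, so that 0 of 10 says little. Arrays of MEFs + ALL + nilotinib and MEFs + DMSO did not overlap for Rassf6, Mthfd2l and Ereg, all higher, and for Afp and Parm1, both lower. Such patterns held for 14.1% and 10.6% of all probesets. The serum protein genes Alb, Afp and Afm, their neighbour Albfm1 and Rassf6 differed by 0.0049, -0.21, -0.050, -0.11 and 0.16. On the other side Mthfd2l, a mitochondrial folate enzyme gene, differed by 0.31, and the growth factor genes Epgn, Ereg and Btc, which encode ligands of the epidermal growth factor receptor family, by 0.13, 0.51 and 0.058. Parm1, beyond them, differed by -0.36 in this comparison (adjusted p = 0.0675 from limma) and fell by 0.83 on the MEFs + ALL + DMSO array (adjusted p = 9.84e-04 from limma).

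**Figure D3:**
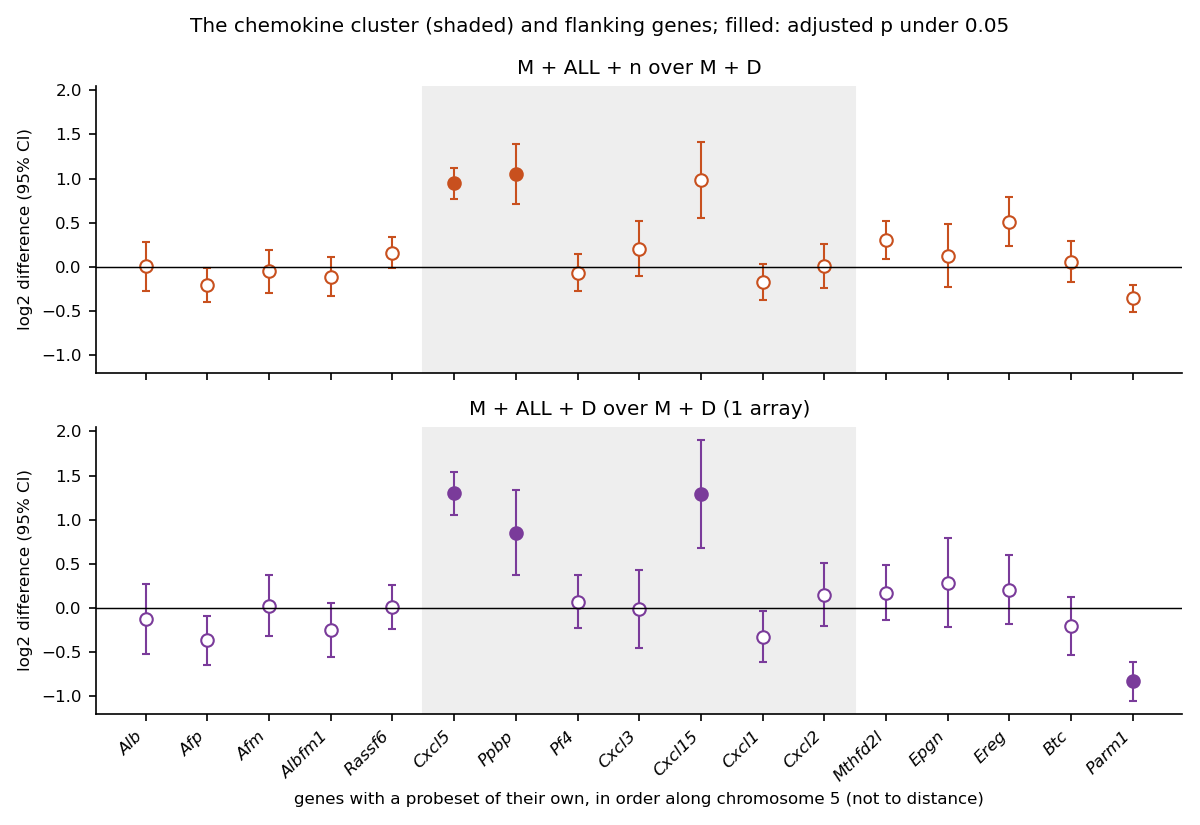
Differences in log2 signal with 95% intervals from limma for the 7 chemokine genes (shaded) and 5 measured genes on either side, in order along chromosome 5, for MEFs + ALL + nilotinib over MEFs + DMSO (top) and the single MEFs + ALL + DMSO array over MEFs + DMSO (bottom). Cxcl5, Ppbp and Cxcl15 stand between 0.85 and 1.30 in both panels, while Pf4 and Cxcl3, which lie between them, stand between -0.065 and 0.20.

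Across the arrays, the levels of Cxcl5, Ppbp and Cxcl15 followed the groups and so each other. Pearson's r over the 10 arrays was 0.90 between Cxcl5 and Ppbp, 0.89 between Cxcl5 and Cxcl15 and 0.93 between Cxcl15 and Ppbp, and over the 9 arrays without MEFs + ALL + DMSO 0.93, 0.85 and 0.95. All these arrays were normalized together and share the groups. Within groups, as deviations from the group means over the arrays of the groups with replicates, Cxcl15 and Ppbp moved together (r = 0.81), as did Cxcl15 and Pf4 (0.87) and Ppbp and Pf4 (0.64), whereas Cxcl5 ran the other way from Ppbp (-0.31), Cxcl15 (-0.38) and Pf4 (-0.59). Replicate 2 of MEFs + ALL + nilotinib had the lowest values of its group for Ppbp, Cxcl15 and Pf4 and the highest for Cxcl5. Cxcl1 correlated with Cxcl5 at -0.50 and with Ppbp at -0.45 over the 10 arrays, and Cxcl2 and Cxcl3 with Cxcl5 at 0.32 and 0.39.

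The genes most like Cxcl5 over the 10 arrays by Pearson's r were Cpxm2 (0.98), a carboxypeptidase-like gene, Penk (0.98), which encodes proenkephalin, Rcan2 (0.98), a regulator of calcineurin, Thbd (0.98), which encodes thrombomodulin, and Prelp (0.98), a matrix proteoglycan. Without the MEFs + ALL + DMSO array they were Plau (0.99), the urokinase gene, Dkk2 (0.99), a Wnt antagonist, Gpc3 (0.98), a glypican, Pappa2 (0.98), a protease of growth factor binding proteins, and Tmem106a (0.98), so that none of the 5 was on both lists. For Ppbp they were Ugdh (0.98), an enzyme of glycosaminoglycan synthesis, As3mt (0.97), an arsenic methyltransferase, St3gal1 (0.97), a sialyltransferase, Cyp39a1 (0.97), an oxysterol hydroxylase, and Tspan5 (0.97), a tetraspanin. Over 9 arrays Ugdh (0.98) and As3mt (0.97) stayed among the 5, with Prelp (0.98), Tcaf2 (0.97) and Serping1 (0.97), the gene of the complement C1 inhibitor. No other member was among the 5 of either gene.

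The rest of the pathway was described from 6 lists with 58 genes, of which 56 were measured. Between MEFs + ALL + nilotinib and MEFs + DMSO 2 of the 56 were called, both higher, Il1rn and Cebpd. Between MEFs + ALL + nilotinib and MEFs + nilotinib and between MEFs + nilotinib and MEFs + DMSO 0 of 56 were called by limma in either direction. On the MEFs + ALL + DMSO array against MEFs + DMSO 7 of 56 were called, 5 higher and 2 lower, a share near the 10.3% of all probesets called there.

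The receptors were dim, with a summed signal of the 4 genes between 217 and 270 on every array. Of Cxcr1 and Cxcr2, the receptors of ELR chemokines, Ackr1, which binds chemokines without signaling, and Cxcr3, a receptor of interferon-induced chemokines, 0 of 4 were called and 0 had an unadjusted p under 0.05 in MEFs + ALL + nilotinib over MEFs + DMSO. Their differences ran from -0.19 (Cxcr3) to -0.023 (Cxcr1), with a median of -0.076. Of the 8 other CXC chemokines 0 were called there and 2 had an unadjusted p under 0.05, and the median difference was 0.045. The interferon-induced Cxcl9, Cxcl10 and Cxcl11 differed by -0.25, -0.20 and -0.20, Cxcl13, which draws B cells, by 0.19, and Cxcl12, which holds B-cell precursors in the marrow, by 0.043. On the MEFs + ALL + DMSO array Cxcl9 fell by 0.46 (adjusted p = 0.0316 from limma).

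Among the inducing cytokines and their receptors 1 of 14 measured genes was called higher and 0 lower, with a median difference of 0.12. It was Il1rn, which encodes the antagonist that blocks the interleukin-1 receptor rather than an inducer, and its log2 signals were 8.77, 8.77 and 8.62 in MEFs + DMSO, 8.95, 8.98 and 8.93 in MEFs + nilotinib, 9.44, 9.25 and 9.38 in MEFs + ALL + nilotinib and 9.03 in MEFs + ALL + DMSO. The groups did not overlap, and the rise over MEFs + DMSO was 0.64 (adjusted p = 0.0182 from limma), while that over MEFs + nilotinib was 0.40 and was not called (adjusted p = 0.112 from limma). The inducers themselves, Il1a, Il1b, Tnf and Il17a, differed by 0.17, -0.10, 0.024 and -0.15, and of the receptor genes Il1rap differed by -0.38 and Tnfrsf1b by 0.24, none of them called. On the MEFs + ALL + DMSO array Tnf rose by 1.04 (adjusted p = 0.00373 from limma) and Il17ra by 0.92 (adjusted p = 0.00117 from limma), beside the B-lineage and leukocyte transcripts of that array.

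All 10 measured transcription factors and feedback genes of the NF-kB and C/EBP arm had differences above 0 in MEFs + ALL + nilotinib over MEFs + DMSO, beside 49.0% of all probesets. These differences ran from 0.0022 to 0.78 with a median of 0.16, and 1 of 10 was called. That gene was Cebpd, which encodes C/EBP delta, with log2 signals of 6.85, 6.73 and 6.44 in MEFs + DMSO, 6.996, 6.998 and 6.92 in MEFs + nilotinib, 7.57, 7.42 and 7.37 in MEFs + ALL + nilotinib and 7.38 in MEFs + ALL + DMSO. The arrays with ALL cells lay above all arrays without. Cebpd rose by 0.78 over MEFs + DMSO (adjusted p = 0.0292 from limma) and by 0.70 on the lone array (adjusted p = 0.0241 from limma), and differed by 0.48 from MEFs + nilotinib (adjusted p = 0.195 from limma). Bcl3, a nuclear partner of NF-kB, differed by 0.48, Nfkbiz, which encodes the NF-kB coactivator IkB-zeta, by 0.45, and Cebpb by 0.30, with adjusted p from 0.0884 to 0.117 by limma. Nfkbia and Tnfaip3, the feedback inhibitors that NF-kB itself switches on, differed by 0.16 and 0.044.

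Of the 8 regulators of chemokine mRNA stability 0 were called in MEFs + ALL + nilotinib over MEFs + DMSO and 3 had an unadjusted p under 0.05, as did 16.2% of all probesets. The largest differences were 0.36 for Traf3ip2, which encodes the interleukin-17 adaptor Act1, and 0.30 for Zfp36l1, an mRNA decay factor. Of the 12 inflammatory factors that fibroblasts secrete along with these chemokines 0 were called, 6 had an unadjusted p under 0.05, and the median difference was 0.28, beside -0.00416 over all probesets. Il6 had log2 signals of 6.83, 6.83 and 6.62 in MEFs + DMSO, 6.98, 7.48 and 7.29 in MEFs + nilotinib, 8.19, 7.51 and 7.61 in MEFs + ALL + nilotinib and 7.84 in MEFs + ALL + DMSO. The dishes with nilotinib alone lay between the others, the difference from MEFs + DMSO was 1.01 (adjusted p = 0.0663 from limma), and that from MEFs + nilotinib was 0.52 (adjusted p = 0.443 from limma). Ccl2 and Ccl7, which draw monocytes, differed by 0.43 and 0.37, and Mmp3, a matrix metalloprotease, by 0.41. On the MEFs + ALL + DMSO array Il6 rose by 1.08 (adjusted p = 0.0408 from limma), Hnrnpd, an mRNA decay factor, by 0.56 (adjusted p = 0.0187 from limma), and Lif fell by 0.94.

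**Figure D4:**
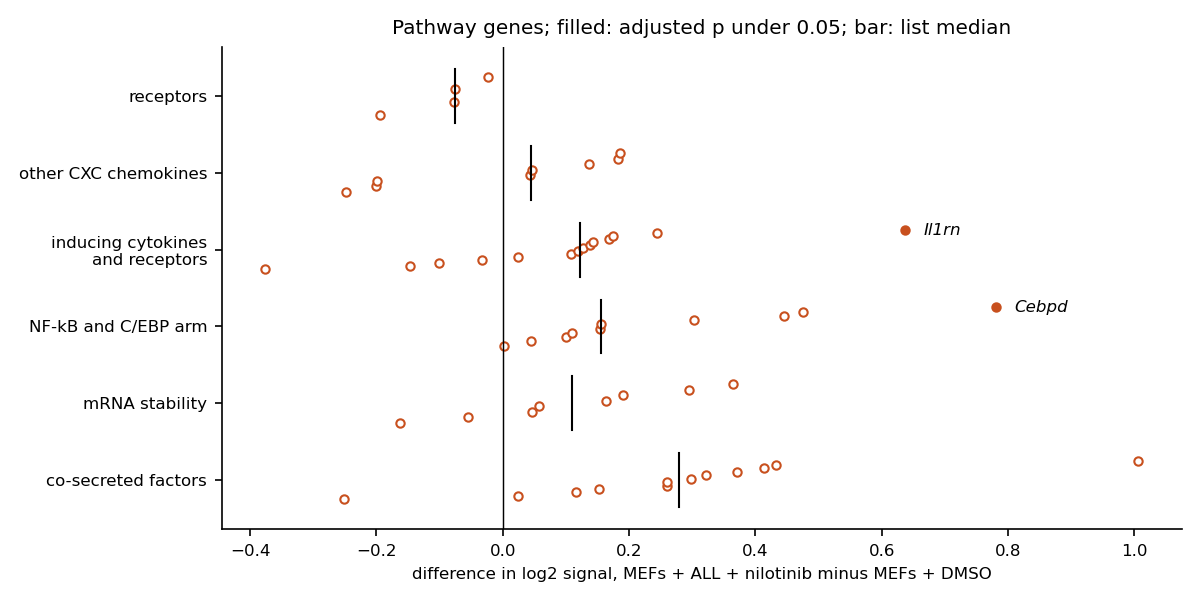
Difference in log2 signal between MEFs + ALL + nilotinib and MEFs + DMSO for each measured gene of the 6 pathway lists (points, filled where the adjusted p is under 0.05) with the list median as a bar. Il1rn at 0.64 and Cebpd at 0.78 are the 2 genes called, and Il6 has the largest difference, 1.01.

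Since the arrays hold RNA of a whole dish, fewer cells of a type and less RNA per cell cannot be told apart. Ppbp and Pf4 are platelet genes, and 6 of 10 listed platelet and megakaryocyte markers were measured. Between MEFs + ALL + nilotinib and MEFs + DMSO 0 of the 6 were called and 6 of 6 were below 0 (median -0.066), and their summed signal was 864 to 1024 in MEFs + ALL + nilotinib, 927 to 997 in MEFs + DMSO and 801 in MEFs + ALL + DMSO. Of 10 neutrophil markers 0 were called, with sums of 482 to 541 and 521 to 560, and of 10 macrophage markers 0 were called, with sums of 7164 to 7806 and 6641 to 7440. Of the B-lineage markers 0 of 10 were called (median -0.10), and 8 of 10 were called higher on the MEFs + ALL + DMSO array (median 1.91). Of 10 markers of all leukocytes 1 was called higher with nilotinib-treated ALL cells, where the sum was 4654 to 5269 against 3981 to 4363 in MEFs + DMSO, 3924 to 4625 in MEFs + nilotinib and 12560 in MEFs + ALL + DMSO. That sum rested on the gene called: the other 9 differed by -0.11 to 0.19, the median over the 10 was 0.0092, and the sum of the 9 was 3046 to 3326 with nilotinib-treated ALL cells and 2936 to 3240 in MEFs + DMSO. The part of these cells' transcripts in the chemokine differences was not tested.

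**Figure D5:**
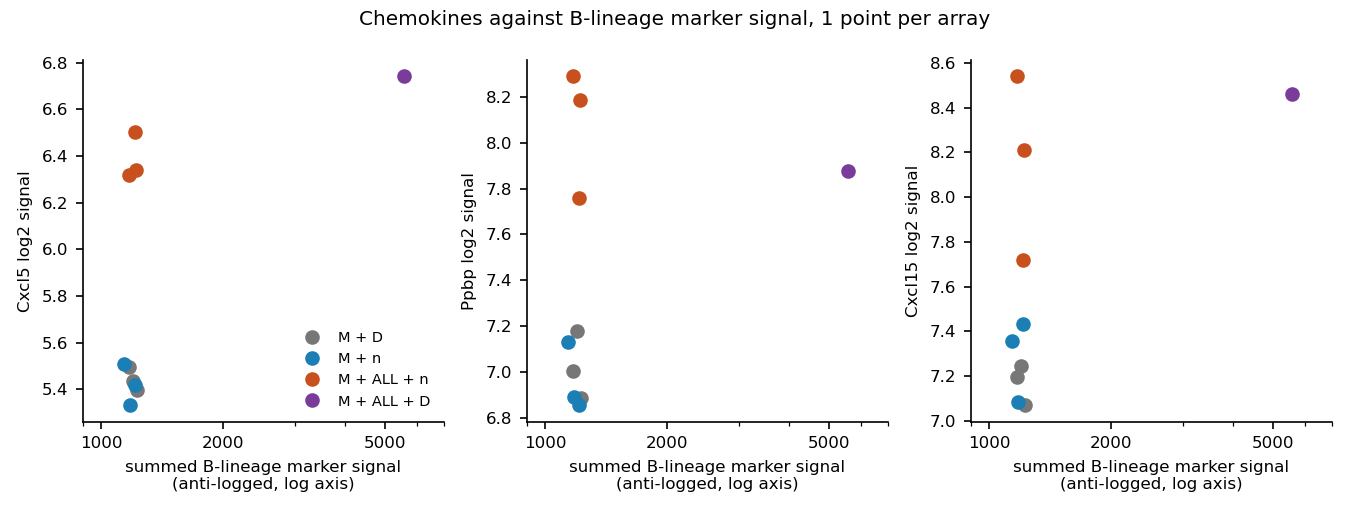
Log2 signal of Cxcl5, Ppbp and Cxcl15 against the summed signal of 10 B-lineage markers (anti-logged, log axis), with 1 point per array and colors for the groups (M, MEFs; D, DMSO; n, nilotinib). The 3 arrays of MEFs + ALL + nilotinib have B-lineage sums of 1173 to 1216, within the range of the arrays without ALL cells, and the MEFs + ALL + DMSO array has 5574.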

How the data were processed

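RNA of irradiated MEFs was hybridised to 10 Affymetrix Mouse Gene 1.0 ST arrays, 1 array per dish. The values used are the log2 signals that the authors deposited, which the legends call RMA-normalized. The methods name Partek, and the sources used here do not give its version, its settings or the genome build. Ingenuity, also named there, was not used. The table has 35557 probesets with 0 missing values. Of these, 21789 pair with 1 gene symbol. All columns were matched to a sample, so that 0 were left over.

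Limma 3.58.1 in R 4.3.3 fitted 4 group means to all 10 arrays (lmFit, eBayes), with Benjamini-Hochberg adjustment over 35557 probesets. Values were anti-logged and averaged by group for fold changes, and intervals are 95% and unadjusted. The fit was tested on simulated data. The alternatives were the groups compared alone, a replicate block, trend and robust, array weights, quantile normalization, median centring, a filter on dim probesets, the mean of a gene's probesets, and leaving out each array.

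Replicate numbers did not pair the dishes: of 9 pairs with the same number, 2 had deviations correlated above 0.1 (r from -0.29 to 0.24). Named genes were the 7 members, from each pathway list every gene called and 2 to 4 with the largest differences, the 5 genes most like Cxcl5 and Ppbp, and 5 measured flanking genes on either side; other inducers, feedback genes and receptors were added after their values were seen. The members and lists were chosen with earlier results of these data known. RefSeq tables (GRCm38.p6) gave gene order and promoter sequences, with 6 of 7 members found. The value of a pan-leukocyte gene is not reported here.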

Additional observations from a re-analysis of the deposited data

Results flagged for a closer look

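Of the pathway genes, 3 were called for limma's interaction term, ALL cells with DMSO against nilotinib, all resting on the single MEFs + ALL + DMSO array. These are 3 of 56 genes measured, a share near the 3.95% of all probesets called for the interaction. The B-lineage and leukocyte transcripts on that array move with the interaction, and their part in it was not tested. The interaction of Tnf was 1.13 on the log2 scale (adjusted p = 0.0113 from limma), higher with DMSO. That of Il17ra was 0.78 (adjusted p = 0.0140 from limma), also higher with DMSO. That of Lif, an interleukin-6 family cytokine gene, was -0.64 (adjusted p = 0.0198 from limma), lower with DMSO. No chemokine of the family was among them.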

How the results depend on the processing

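Of members called in MEFs + ALL + nilotinib over MEFs + DMSO, 2 as reported, 1 remained with the groups compared alone and 1 with the replicate block (Cxcl5 in both), and 1 to 3 when an array was left out. With the trend and robust options, array weights or the filter on dim probesets 3 were called, with Cxcl15 added. Calls over all 35557 probesets were 223 as reported, 12 with the groups compared alone, 8 with the replicate block and 8 to 223 with an array left out. Over MEFs + nilotinib, 2 as reported, 0 were called with the groups compared alone, 1 with the replicate block and 1 to 2 with an array left out. Array weights gave 3 there, with Cxcl15 added. Calls over all probesets in that comparison were 66 as reported, 4 with the groups compared alone, 12 with the replicate block and 12 to 66 with an array left out. On the MEFs + ALL + DMSO array, 3 as reported, the count was 1 to 3 with an array left out, where fewer of all probesets were called as well. Between the groups with ALL cells, 0 as reported, array weights gave 1. No call reversed. Differences near 0 changed sign, none of them called. For MEFs + ALL + nilotinib over MEFs + DMSO, Cxcl2 was -0.00109 with array weights, and ranged from -0.035 to 0.085 and Pf4 from -0.16 to 0.017 with an array left out. Over MEFs + nilotinib Cxcl1 ranged likewise from -0.048 to 0.060 and Cxcl2 from -0.051 to 0.15. For nilotinib alone, Cxcl5 was 0.00520 under quantile normalization and Cxcl3 0.00283 with array weights, and the ranges were -0.066 to 0.023 for Cxcl5, -0.15 to 0.013 for Ppbp, -0.12 to 0.088 for Cxcl3 and -0.14 to 0.065 for Cxcl2. On the MEFs + ALL + DMSO array, quantile normalization gave -0.00262 for Pf4 and 0.091 for Cxcl3, centring 0.00202 for Cxcl3, and leaving out an array -0.045 to 0.016 for Cxcl3. The interaction of Cxcl2 ranged from -0.000552 to 0.20. The cause was not tested. The number of dishes limits each comparison.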
